A study of Mus musculus with 6 samples.

Results

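The genes described here are 37 textbook targets of E proteins in blood and muscle, 22 lymphoid and 15 from skeletal muscle, of the 21900 protein-coding mouse genes in the RefSeq gene table. They were chosen by name from what E proteins regulate in those lineages, with earlier results of these data known. Every E2A peak whose nearest gene, as the authors annotated it, is one of them was collected from 5 peak lists. The lists come from chromatin immunoprecipitation and sequencing (ChIP-seq) of E2A, the product of Tcf3, in neural stem cells cultured from C57BL/6J E12.5 embryos, kept dividing by 20 ng/ml of FGF-2 and the same of EGF, with no other treatment listed. There were 3 wild-type libraries (wt replicates 1, 2 and 3), 1 library from cells lacking the E12 splice form (E12KO) and 1 from cells lacking the E47 splice form (E47KO). The knockout label names the whole genotype, and no allele or deleted exon is given. The wild-type and knockout cells are labelled with the same strain, age and fixation. The fixation was 1.5 mM EGS for 20 min and 1% formaldehyde for 10 min. All 5 used one antibody labelled as against E2A, and which splice forms it detects is not stated. Peak positions offer no check of the knockout labels. An input library was also made and was not analysed here. The labels do not say whether the wild-type libraries came from separate embryos or cultures, and a knockout with 1 library has no replicate error.

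E proteins are basic helix-loop-helix factors that bind DNA as dimers at E-boxes, short sites of the form CANNTG. In B cell progenitors E2A acts mostly as a homodimer and switches on Ebf1, which together with E2A drives Pax5, the recombinase genes and the parts of the pre-B cell receptor. In muscle precursors E12 and E47 pair with MyoD, Myf5 or myogenin and activate genes of the contractile apparatus. Neural stem cells belong to neither lineage. Whether any of the 37 genes was transcribed in these cells was not measured, since the files hold binding positions and no expression, and the cell type itself could not be checked against marker genes.

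List lengths were 6814 peaks for wt replicate 1, 12772 for wt replicate 2 and 24194 for wt replicate 3, with 25229 for E12KO and 22176 for E47KO. Read totals are not part of the lists, so the depth is unknown, and a longer list finds more of any set of genes. The name under which the wt replicate 1 list was deposited gives another false discovery rate than the names of the other 4, and that list alone gives scores per peak.

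Of the 37 genes, 18 (48.6%) had at least 1 peak in at least 1 of the 5 lists, against 52.1% of all protein-coding genes. The lymphoid share was 11 of 22 and the muscle share 7 of 15. By list, a peak was annotated to 9 members in wt replicate 1 (17.5% of all protein-coding genes had one there), to 12 in wt replicate 2 (27.8%), to 16 in wt replicate 3 (42.8%), to 16 in E12KO (45.1%) and to 15 in E47KO (40.7%). The members' own shares were 24.3%, 32.4%, 43.2%, 43.2% and 40.5% in the same order. These shares mostly followed the length of the list as those of all genes did, though they were equal in wt replicate 3 and E12KO. The widest gap was in wt replicate 1, the shortest list, where the members stood higher. The 3 wild-type lists averaged 12.3 ± 3.51 members with a peak (SD, n = 3), from 9 to 16. E47KO lay inside this range and E12KO at its upper end. The wild-type lists differ in length, and wt replicate 1 in its named false discovery rate. The spread is therefore not replicate error alone and gives no measure of a genotype difference.

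**Figure D1:**
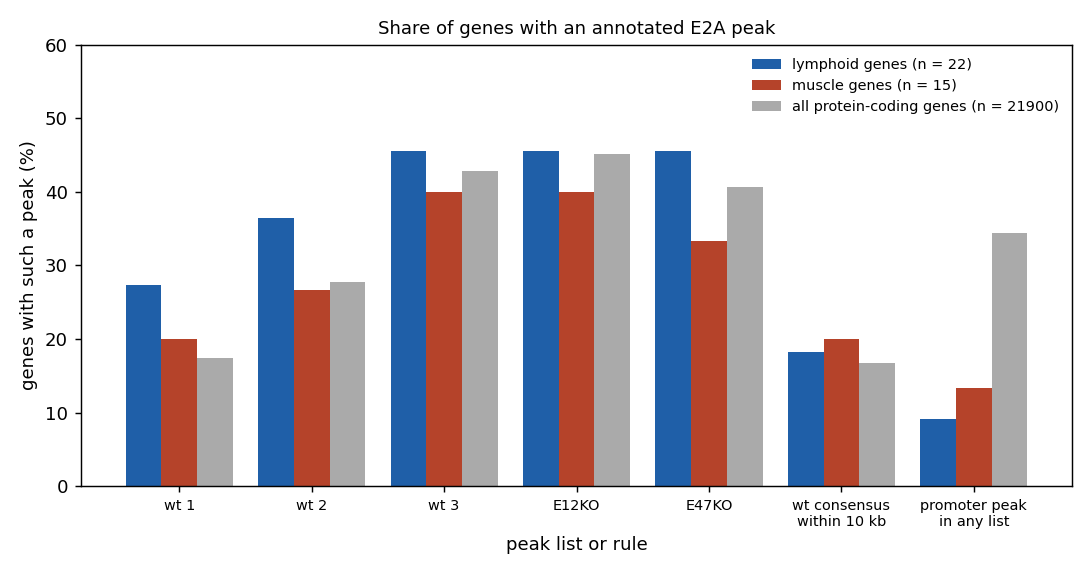
Percentage of genes with an annotated E2A peak (vertical axis) in each of the 5 lists, with a wt consensus region within 10 kb of the start site, or with a promoter peak in any list (horizontal axis), as bars for the 22 lymphoid genes, the 15 muscle genes and all 21900 protein-coding genes. Shares are lowest in wt replicate 1, the shortest list, and next lowest in wt replicate 2, for members and all genes alike. The lymphoid share is the same (45.5%) in wt replicate 3, E12KO and E47KO. Both lineages are below all genes for promoter peaks (9.09% and 13.3% against 34.4%).

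A wt consensus region, meaning overlapping peaks in at least 2 of the 3 wild-type lists, was annotated to 12 of the 37 genes (32.4%, against 27.6% of all protein-coding genes). Within 10 kb of the start site it was 7 of 37 (18.9%, against 16.7%). Those 7 were the lymphoid genes Bcl2l11, Dntt, Pou2af1 and Vpreb3 and the muscle genes Mef2a, Tnnt1 and Myh3. The other 5 with a consensus region farther away were Ebf1, Pax5, Gata3, Myog and Chrnd. The 12 became 7 without wt replicate 2 and 6 without wt replicate 3, and the 7 became 4 without either of these. The 4 that remained in both cases were Bcl2l11, Dntt, Pou2af1 and Vpreb3, so each near consensus region of a muscle gene needed both wt replicates 2 and 3. When a list is left out, a region must be in both remaining lists, so fewer regions can qualify.

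Among these shares the widest gap between members and all genes was at promoters. A promoter peak in any list was found at 4 of 37 genes (10.8%), Ebf1, Bcl2l11, Mef2a and Tnnt1, against 34.4% of all protein-coding genes. A peak within 10 kb in any list was found at 10 of 37, against 41.1% of all genes. A promoter peak in at least 2 of the 5 lists was at the same 4 genes, against 25.4%. This is a count of a chosen list and was not tested. The upstream sequence of these 4 genes is printed to show the sequence before their starts, with that of Foxo1, whose first site also lay within 2 kb of a start. Each run is the 250 bases before a start site in RefSeq (GRCm38.p6), read 5′ to 3′ on the gene's strand, with every E-box CANNTG in capitals. The peaks were mapped on mm9, so they were not placed on these windows base by base, but the distances in the tables show which came within 250 bases of the start the authors used. Peaks at both Bcl2l11 starts and at the Mef2a start did, as did the E12KO peak at Ebf1, which ended 0.153 kb upstream. All Ebf1 promoter peaks were measured to a single mm9 start, and which of the printed Ebf1 windows belongs to that start was not determined. The other Ebf1 peaks ended 0.41 and 0.481 kb upstream, the Tnnt1 peaks 0.364 to 0.451 kb upstream, and the Foxo1 peaks began 1.07 and 1.36 kb downstream, all beyond such a window.

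Bcl2l11, upstream start, GRCm38.p6 chr2:128125788-128126037, plus strand: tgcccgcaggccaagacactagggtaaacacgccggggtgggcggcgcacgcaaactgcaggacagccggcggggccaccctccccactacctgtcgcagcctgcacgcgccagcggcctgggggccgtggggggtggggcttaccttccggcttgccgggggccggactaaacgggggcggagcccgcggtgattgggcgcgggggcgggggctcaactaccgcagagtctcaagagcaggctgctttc
Bcl2l11, downstream start, GRCm38.p6 chr2:128127325-128127574, plus strand: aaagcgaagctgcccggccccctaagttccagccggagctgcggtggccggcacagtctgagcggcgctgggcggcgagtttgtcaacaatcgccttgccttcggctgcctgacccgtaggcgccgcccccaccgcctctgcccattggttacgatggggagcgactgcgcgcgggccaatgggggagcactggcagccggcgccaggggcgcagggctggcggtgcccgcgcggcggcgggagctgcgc
Mef2a, GRCm38.p6 chr7:67372859-67373108, minus strand: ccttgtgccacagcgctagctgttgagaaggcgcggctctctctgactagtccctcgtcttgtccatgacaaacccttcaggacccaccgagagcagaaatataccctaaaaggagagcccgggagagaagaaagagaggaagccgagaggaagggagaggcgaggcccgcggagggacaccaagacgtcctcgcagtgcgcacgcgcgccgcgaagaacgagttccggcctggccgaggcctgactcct
Tnnt1, GRCm38.p6 chr7:4515976-4516225, minus strand: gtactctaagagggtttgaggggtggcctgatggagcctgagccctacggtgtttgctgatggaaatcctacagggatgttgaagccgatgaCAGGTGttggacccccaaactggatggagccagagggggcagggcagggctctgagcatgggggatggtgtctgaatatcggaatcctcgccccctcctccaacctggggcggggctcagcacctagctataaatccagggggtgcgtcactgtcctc
Ebf1, upstream start, GRCm38.p6 chr11:44617850-44618099, plus strand: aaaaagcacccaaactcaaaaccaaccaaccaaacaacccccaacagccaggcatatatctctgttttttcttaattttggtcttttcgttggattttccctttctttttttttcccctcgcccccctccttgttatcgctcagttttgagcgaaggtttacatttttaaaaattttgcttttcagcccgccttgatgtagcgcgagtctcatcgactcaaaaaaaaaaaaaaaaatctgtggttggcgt
Ebf1, downstream start, GRCm38.p6 chr11:44619978-44620227, plus strand: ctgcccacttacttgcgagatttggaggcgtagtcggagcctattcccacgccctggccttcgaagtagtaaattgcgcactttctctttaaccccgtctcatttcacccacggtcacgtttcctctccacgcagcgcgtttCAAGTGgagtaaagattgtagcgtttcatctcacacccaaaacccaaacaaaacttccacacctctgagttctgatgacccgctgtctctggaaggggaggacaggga
Foxo1, GRCm38.p6 chr3:52268087-52268336, plus strand: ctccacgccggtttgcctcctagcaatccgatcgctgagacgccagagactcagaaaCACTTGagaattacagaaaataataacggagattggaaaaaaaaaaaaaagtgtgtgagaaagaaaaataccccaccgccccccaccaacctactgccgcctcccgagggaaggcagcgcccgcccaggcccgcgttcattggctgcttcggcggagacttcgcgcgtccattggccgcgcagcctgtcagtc

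E-boxes were few in these 7 windows. Both Bcl2l11 windows, the Mef2a window and the upstream Ebf1 window had no CANNTG at all. The Tnnt1 window had 1, a CAGGTG that begins 158 bases before the start, and CAGGTG with its reverse complement CACCTG is one of the forms E2A prefers. The downstream Ebf1 window had 1 CAAGTG beginning 108 bases before the start, and the Foxo1 window 1 CACTTG beginning 193 bases before it. Among all 32851 RefSeq windows of the same length, 66.2% held a CANNTG on either strand, 4271 windows a CAGCTG, 17.2% a CAGGTG or CACCTG, and 6.02% a CACGTG. The first form contains the others, so these shares overlap. A match describes letters and is not a binding site, and a window without one says nothing of sites outside it.

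Windows of members with no peak in any list more often held CAGCTG, and more often CAGGTG or CACCTG. Windows were found for 32 of the 37 genes, 16 windows of 15 genes without a peak and 21 windows of 17 genes with one. A gene with a peak at any distance is called bound here, and only 4 of the 37 genes had a promoter peak in any list. Most windows of bound genes thus had no promoter peak, and bound promoters were not compared with unbound ones. CAGCTG occurred in 7 of the 16 windows of unbound genes (43.8%) and in 3 of the 21 windows of bound genes (14.3%), and CAGGTG or CACCTG in 6 of 16 (37.5%) and 3 of 21 (14.3%). Any CANNTG was present in 13 of 16 and 14 of 21, and CACGTG in none of either. Of all 32851 RefSeq windows, 4271 held CAGCTG and 17.2% held CAGGTG or CACCTG. For both forms the windows of bound genes were close to the share of all windows. Those of unbound genes lay above it, so the contrast does not mark bound genes as poor in these forms. The member counts are over few genes, and no difference was tested. Single windows went both ways. The Actc1 window and both Ikzf1 windows, of genes without a peak, had no CANNTG. Among genes with a peak, 1 Tnni1 window held both CAGCTG and CAGGTG or CACCTG, and the Vpreb3 window held 5 CANNTG. The 3 windows of unbound genes that hold both of these forms are printed below, again with CANNTG in capitals. They were chosen after their sequences were seen, so they do not stand for all 16.

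Chrna1, GRCm38.p6 chr2:73580339-73580588, minus strand: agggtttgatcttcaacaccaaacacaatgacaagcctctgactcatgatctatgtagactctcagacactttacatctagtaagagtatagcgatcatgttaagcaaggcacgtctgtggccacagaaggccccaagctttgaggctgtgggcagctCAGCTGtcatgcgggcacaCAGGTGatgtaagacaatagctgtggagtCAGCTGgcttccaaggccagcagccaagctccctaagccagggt
Igll1, GRCm38.p6 chr16:16863986-16864235, minus strand: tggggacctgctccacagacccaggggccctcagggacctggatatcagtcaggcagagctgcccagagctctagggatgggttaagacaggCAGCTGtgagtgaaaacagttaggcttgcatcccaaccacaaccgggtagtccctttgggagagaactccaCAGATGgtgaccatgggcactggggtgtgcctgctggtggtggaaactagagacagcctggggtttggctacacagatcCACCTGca
Rag1, GRCm38.p6 chr2:101649533-101649782, minus strand: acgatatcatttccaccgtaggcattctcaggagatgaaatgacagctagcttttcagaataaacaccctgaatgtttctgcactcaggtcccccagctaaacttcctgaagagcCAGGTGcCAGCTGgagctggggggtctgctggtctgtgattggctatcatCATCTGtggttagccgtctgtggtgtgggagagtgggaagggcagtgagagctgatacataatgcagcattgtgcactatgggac

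Chrna1, the α subunit of the muscle acetylcholine receptor, had CAGCTG beginning 92 and 44 bases before its start with CAGGTG between them at 73. Igll1, part of the surrogate light chain, had CAGCTG at 158, CAGATG at 87 and CACCTG at 8 bases before its start. Rag1, a subunit of the recombinase that cuts antigen receptor genes, had CAGGTG at 135, CAGCTG at 128 and CATCTG at 85. None of the 5 lists had a peak annotated to any of these 3 genes.

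The 18 bound genes carried 44 separate regions, 29 at lymphoid and 15 at muscle genes, when peaks of all 5 lists that overlap were joined. Mef2a held 8 of them and Ebf1 and Bcl2l11 held 7 each, so shares of regions lean on these genes. Of the 44 regions, 36 were in wt replicate 3, 36 in E12KO, 34 in E47KO, 19 in wt replicate 2 and 13 in wt replicate 1. All 5 lists shared 6 regions (13.6% of 44, against 12.7% of the 32576 joined regions with a gene name), 15 in 4 lists (34.1% against 22.0%), 10 in 3 (22.7% against 20.8%), 5 in 2 (11.4% against 16.2%) and 8 in 1 (18.2% against 28.3%). The 6 found everywhere belonged to 6 genes, Dntt, Vpreb3, Pou2af1, Gata3, Bcl2l11 and Chrnd, and 11.9% of all protein-coding genes had such a region. Of those genes, Chrnd alone is a muscle gene.

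**Figure D2:**
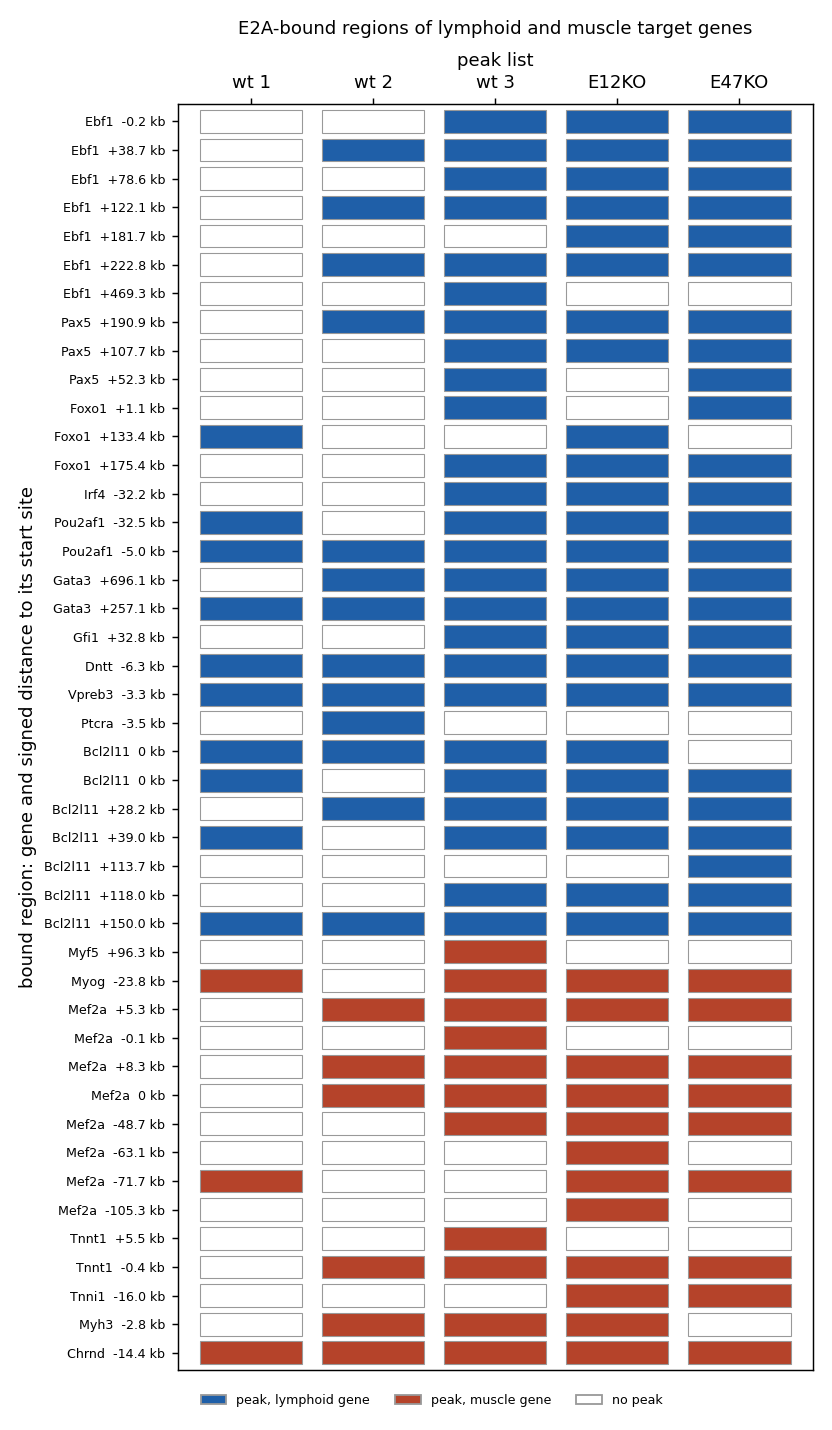
Presence of a peak (filled) in each of the 5 lists (columns) at each of the 44 regions (rows), which are labelled by gene and signed distance to the start site in kb, negative upstream. Lymphoid genes are blue and muscle genes red, and 6 rows are filled across all 5 lists while 8 are filled in 1 list only.

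Of the 44 regions, 15 lay within 10 kb of a start (34.1%, against 41.1% of all joined regions), 7 of them within 2 kb (15.9% against 28.4%), and 25 within 50 kb (56.8% against 69.7%). The other 19 were beyond 50 kb. The median distance was 35.7 kb for the member regions and 18.2 kb for all joined regions. By annotated feature, 23 were intergenic, 10 intronic, 5 exonic and 6 at promoters (13.6% against 26.1%). The exonic ones at Gfi1 and Tnni1 were in exons of other transcripts. Shares over all joined regions were not counted for features other than promoters, nor for a gene's own body. The member's own promoter, exons or introns held 18 of the 44, and 6 of those were nevertheless beyond 50 kb of a start, inside Ebf1 and Pax5. At any distance, the nearest start is a naming rule and not evidence that the gene is regulated from the region.

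**Figure D3:**
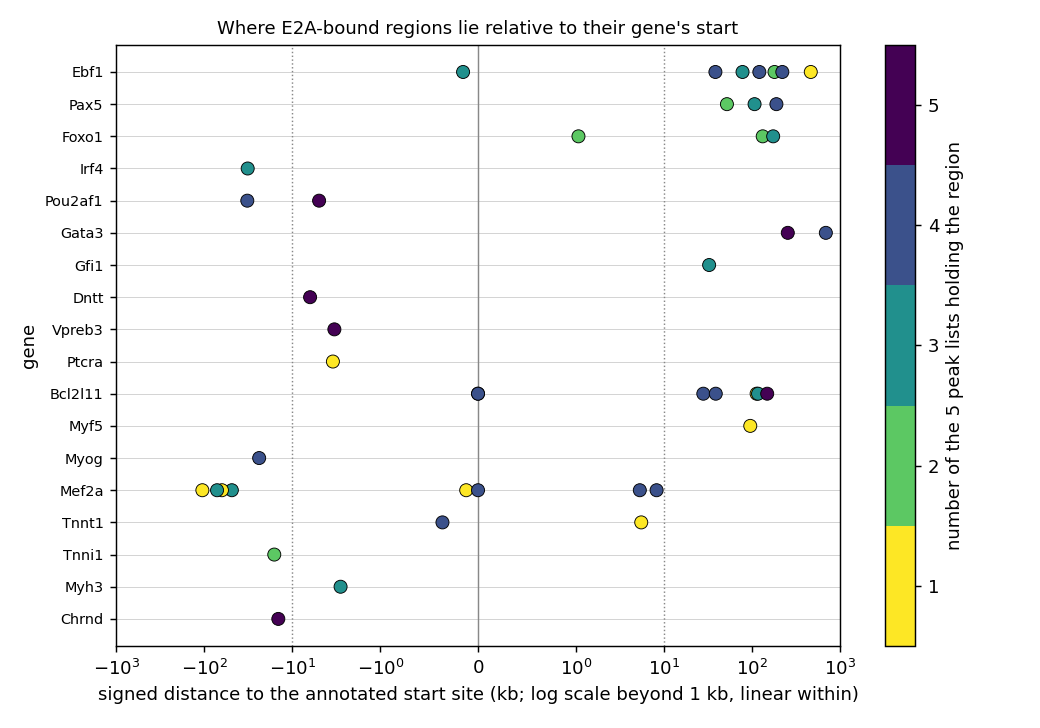
Signed distance of each of the 44 regions from the annotated start site (horizontal axis, kb, logarithmic beyond 1 kb and linear within, negative upstream), one row per gene, coloured by how many of the 5 lists hold the region. Dotted lines mark 10 kb on either side, and 15 regions lie between them.

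Of the 9 lymphoid transcription factor genes, 7 had a peak in at least 1 list at any distance (77.8%, against 52.1% of all genes). Within 10 kb, 3 had a peak in at least 1 list (33.3%, against 41.1% of all genes). Only 1, Pou2af1, had a consensus region within 10 kb (16.7% of all genes). Ebf1, which commits progenitors to the B lineage, had 7 regions, a number that 91.8% of the 11419 bound protein-coding genes did not reach (the median was 2). Its promoter, on mm9 chromosome 11, was covered at 44430267 to 44431155 by wt replicate 3, at 44430415 to 44431483 by E12KO and at 44430453 to 44431226 by E47KO, ending 0.481, 0.153 and 0.41 kb upstream of the start. Neither wt replicate 1 nor wt replicate 2 had a peak there. A further 5 regions lay in the long intron 6, of a gene that spans 387039 bp, at 38.7, 78.6, 122, 182 and 223 kb downstream of the start.

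All lists except wt replicate 1 held the Ebf1 regions at 38.7, 122 and 223 kb. The one at 78.6 kb was in wt replicate 3 and both knockouts, and the one at 182 kb (44613307 to 44613680) in both knockouts and no wild-type list. An intergenic peak 469 kb from the start was in wt replicate 3 alone. Wt replicate 1 had no peak at Ebf1, so every call there comes from the 4 longer lists.

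Pax5, which maintains B cell identity, was listed in intron 7 (108 kb from its start, wt replicate 3 and both knockouts), in intron 5 (52.3 kb, wt replicate 3 and E47KO), and beyond its end, 191 kb from the start, where wt replicates 2 and 3 and both knockouts had a peak. The gene spans 178935 bp, and its promoter had no peak in any list. Foxo1, a forkhead factor that activates the recombinase genes, had a peak at 1.07 kb past its start, annotated to exon 1, in wt replicate 3 (52073332 to 52074124 on mm9 chromosome 3). E47KO had an overlapping one, annotated to intron 1 (52073619 to 52074143), and there was none in E12KO or in wt replicates 1 and 2. The more distant Foxo1 regions were at 133 kb, in wt replicate 1 and E12KO, and at 175 kb, in wt replicate 3 and both knockouts. No Foxo1 region was in 2 wild-type lists.

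Pou2af1 encodes a B cell coactivator of octamer-binding factors, and it and Gata3 were the regulators with a region in all 5 lists. The Pou2af1 one, about 4.96 kb upstream of its start, on mm9 chromosome 9, was covered from 51016361 to 51016752 in wt replicate 1, 51016471 to 51016807 in wt replicate 2, 51016382 to 51016835 in wt replicate 3, 51016278 to 51016800 in E12KO and 51016360 to 51016749 in E47KO. The 5 intervals nearly coincide. A further one 32.5 kb upstream was in every list except wt replicate 2.

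Gata3, a T cell factor, had regions at 257 kb (all 5 lists) and 696 kb (all but wt replicate 1) from its start and none nearer, and Celf2, its neighbour on that side in the RefSeq order, had 22 regions of its own. Irf4, which acts late in B cells and in plasma cells, had 1 region 32.2 kb upstream, and Gfi1, a zinc-finger repressor, 1 region 32.8 kb from its start that the authors place in an exon of another transcript in both knockouts. Each of these was in wt replicate 3, E12KO and E47KO. Ikzf1 and Ikzf3, which encode Ikaros and Aiolos, had no peak.

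Among the genes for building antigen receptors, Dntt alone of 3 recombination genes and Vpreb3 and Ptcra of 9 receptor and signalling genes (22.2%) had a peak, against 52.1% of all genes. Dntt encodes terminal transferase, which adds nucleotides at receptor gene joints. Its site was on mm9 chromosome 19 from 41096649 to 41097258 in wt replicate 1, 41096691 to 41097403 in wt replicate 2, 41096208 to 41097486 in wt replicate 3, 41096655 to 41097462 in E12KO and 41096643 to 41097471 in E47KO, 6.28 kb upstream of the start by the nearest edge. All 5 lists agree on the site within its own width. Blnk, the adaptor gene beside Dntt in the RefSeq order, had none.

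Vpreb3, whose product associates with the pre-B cell receptor, had a region on mm9 chromosome 10 in all 5 lists, from 75407018 to 75407433 in wt replicate 1, 75406789 to 75407475 in wt replicate 2, 75406443 to 75407640 in wt replicate 3, 75406566 to 75407655 in E12KO and 75406479 to 75407731 in E47KO. It was widest, at 1253 bp, in E47KO and narrowest, at 416 bp, in wt replicate 1. The nearest edge was 3.33 kb upstream of the start. Ptcra, the invariant chain of the pre-T cell receptor, had a peak 3.46 kb upstream in wt replicate 2 alone.

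The genes for the recombinase (Rag1, Rag2), the surrogate light chain (Igll1, Vpreb1), the signalling chains of the B cell receptor (Cd79a, Cd79b) and the T cell receptor (Cd3e), the adaptor Blnk and the interleukin 7 receptor (Il7r) had no peak in any list. Several of them lie next to a gene that had one. Of the 38 immediate protein-coding neighbours of the 19 members without a peak, 21 had one themselves (55.3%), close to the 52.1% of all genes. For the 18 members with a peak it was 22 of 36 neighbours (61.1%). At least 1 bound neighbour was found for 15 of the 19 and for 13 of the 18. The share of all genes with a bound neighbour was not counted, so these counts mark no trait of the members. Iftap, next to Rag2, had 12 regions in the 5 lists together and Traf6, next to Rag1, had 2. Igll1 and Vpreb1, which are neighbours, Il7r and Actc1 had no bound neighbour on either side.

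Bcl2l11 encodes the pro-apoptotic protein BIM and held 7 regions, 5 of them consensus regions, the most of any member. Its promoter carried 2. The upstream one, on mm9 chromosome 2, was at 127951461 to 127951755 in wt replicate 1, 127951407 to 127951660 in wt replicate 2, 127951401 to 127951999 in wt replicate 3 and 127951375 to 127952158 in E12KO, and E47KO had no peak there. The downstream one, at another annotated start, was at 127953456 to 127954029 in wt replicate 1, 127953478 to 127954011 in wt replicate 3, 127952933 to 127954001 in E12KO and 127952830 to 127954006 in E47KO, with none in wt replicate 2. Each promoter region was thus absent from 1 list, and E47KO listed the downstream one.

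An intronic region of Bcl2l11 28.2 kb downstream was in every list but wt replicate 1, and one at 39.0 kb in every list but wt replicate 2. A region about 150 kb downstream was in all 5 lists, and the wide E12KO peak there also overlaps a separate peak that wt replicate 3 and E47KO list under another gene, Gm14005. One at 118 kb was in wt replicate 3 and both knockouts, and one at 114 kb in E47KO alone.

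Of the myogenic factors, Mef2a had the most regions of any member, 8, more than 93.7% of bound genes. It encodes a MADS-box partner of the myogenic factors that many tissues besides muscle express. Its main promoter, on mm9 chromosome 7, was covered from 74517789 to 74518059 in wt replicate 2, 74517536 to 74518429 in wt replicate 3, 74517074 to 74518569 in E12KO and 74517524 to 74518452 in E47KO, and not in wt replicate 1. Regions within the gene, 5.35 and 8.29 kb from the nearest annotated start, were in the same 4 lists. The 4 intergenic ones upstream were less shared: that at 48.7 kb was in wt replicate 3 and both knockouts, that at 71.7 kb in wt replicate 1 and both knockouts, and those at 63.1 and 105 kb in E12KO alone. A peak at an internal promoter was in wt replicate 3 alone.

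Myog, the gene for myogenin, had 1 region 23.8 kb upstream, in wt replicates 1 and 3 and both knockouts. Myf5 had a single peak, in wt replicate 3, 96.3 kb from its start and inside intron 4 of Lin7a, a different gene. Myod1 and Myf6 had none. The 4 myogenic bHLH genes, whose products pair with E proteins, had no peak within 10 kb of a start in any of the 5 lists, where 41.1% of all protein-coding genes had one, and a count of 0 among 4 genes shows little beside that share.

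Of the 8 contractile and muscle enzyme genes, Tnnt1, Tnni1 and Myh3 had a peak (37.5%, against 52.1% of all genes). Tnnt1, slow skeletal troponin T, was bound at its promoter on mm9 chromosome 7, at 4468028 to 4468371 in wt replicate 2, 4468001 to 4468423 in wt replicate 3, 4467941 to 4468286 in E12KO and 4468011 to 4468300 in E47KO, with a second peak in exon 7 in wt replicate 3 alone. All 4 peaks ended upstream of the 250 bases printed for this gene, so none was placed at the CAGGTG in them. Myh3, embryonic myosin heavy chain, had a site 2.83 kb upstream of an annotated start on mm9 chromosome 11, at 66888501 to 66888899 in wt replicate 2, 66888460 to 66888971 in wt replicate 3 and 66888446 to 66888974 in E12KO, and none in E47KO or wt replicate 1.

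Tnni1, slow troponin I, had a site 16.0 kb upstream in both knockouts and no wild-type list, in an exon of a different transcript. Desmin (Des), muscle creatine kinase (Ckm), the actins Acta1 and Actc1 and the fast myosin light chain Mylpf had none. Of the acetylcholine receptor genes, Chrnd, the δ subunit, had a region 14.4 kb upstream in all 5 lists, at 89072430 to 89072718 on mm9 chromosome 1 in wt replicate 1, 89072504 to 89072696 in wt replicate 2, 89072496 to 89072743 in wt replicate 3, 89072158 to 89072800 in E12KO and 89072491 to 89072793 in E47KO. It was the only region of a muscle gene in all 5 lists, and Chrna1 had none.

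Nearly all member sites shared by at least 2 wild-type lists were also listed in each knockout, and fewer of those in any wild-type list. The members had 22 wt consensus regions, of which E12KO listed 22 (100%, 95% Wilson interval 85.1 to 100) and E47KO listed 20 (90.9%, 72.2 to 97.5), against 96.6% and 93.5% of all 12322 wt consensus regions. The intervals cover counting error only. They treat the regions as independent, though Bcl2l11 held 5 of the 22 and Ebf1 and Mef2a held 3 each. Of the 39 member regions in any wild-type list, E12KO listed 32 (82.1%, against 77.8% of all such regions) and E47KO listed 31 (79.5%, against 70.7%). The 2 regions without a peak in E47KO were the upstream Bcl2l11 promoter region and the Myh3 site. With wt replicate 2 left out the counts were 11 of 11 and 10 of 11, and with wt replicate 3 left out 7 of 7 and 6 of 7. No test between genotypes is possible with 1 library each, and the Myh3 site was missing from 1 wild-type list as well.

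Regions of a single kind of list were few. Of the 44, 5 were in a wild-type list and neither knockout (11.4%, against 14.1% of all joined regions), the Ebf1 region at 469 kb, the Ptcra site, the Myf5 peak, the Mef2a internal promoter and Tnnt1 exon 7, and each was in 1 wild-type list alone. The 2 at Ebf1 (182 kb) and Tnni1 were in both knockouts and no wild-type list (4.55%, against 4.42% of all joined regions). Another 2 were in E12KO alone and 1 in E47KO alone (9.61% and 5.32% of all joined regions). Wt replicate 3 alone held 4 (9.09% against 7.73%), and wt replicate 2 alone held 1 (2.27% against 3.14%), while wt replicate 1 alone held 0 (0%, against 2.55%).

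The strength of the members' sites could be read only in wt replicate 1, where the authors give each peak a fold enrichment, a −log10 q and a pileup. The 13 member peaks there had a median fold enrichment of 7.12, from 3.92 to 11.97, against a median of 7.48 over all 6814 peaks, and a median −log10 q of 10.6 against 13.5. The top member was the Dntt site, with a −log10 q of 44.03, a fold of 11.97 and a pileup of 60, above 86.6% of that list by −log10 q. It was followed by the Gata3 region at 257 kb (9.71-fold, above 68.5%), Foxo1 at 133 kb (9.26-fold, above 60.2%) and the far Bcl2l11 region at 150 kb (7.79-fold, above 59.6%). These 4 are the only member peaks above the middle of the list.

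Both Pou2af1 peaks and the Mef2a one at 71.7 kb had identical scores (7.12-fold, −log10 q 10.6, pileup 19). Chrnd had 6.49-fold, Myog 5.94-fold and the Bcl2l11 promoter regions 4.62-fold and 5.82-fold, with 5.78-fold for Bcl2l11 at 39.0 kb. Vpreb3, though in all 5 lists, was the weakest at 3.92-fold with a −log10 q of 4.79, above 4.55% of the list. So the gene with the lowest score of the 13 peaks was one of the 6 with a region in every list.

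**Figure D4:**
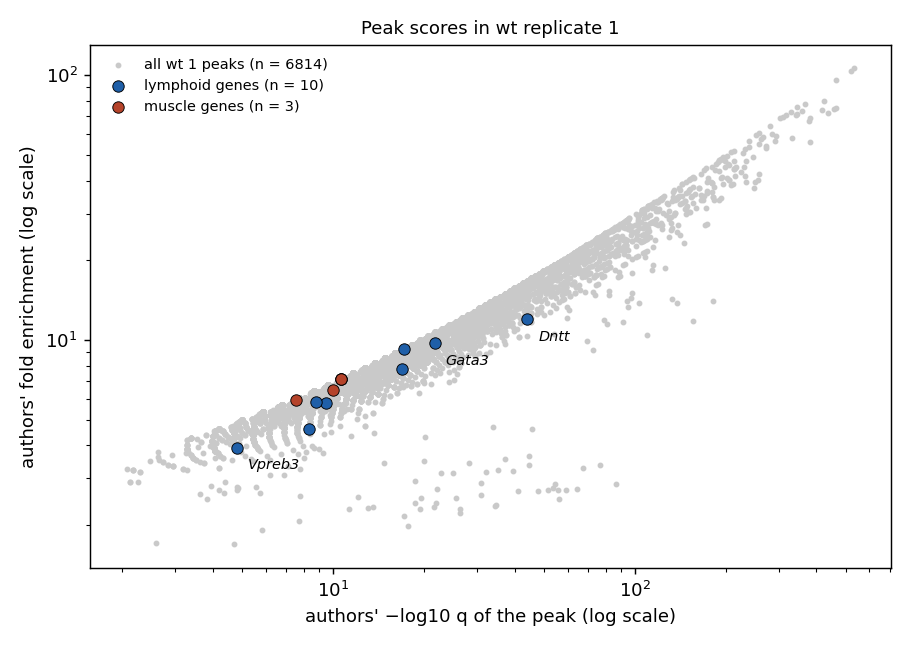
Authors' fold enrichment (vertical axis) against the authors' −log10 q (horizontal axis), both logarithmic, for all 6814 peaks of wt replicate 1 in grey, with the 10 lymphoid (blue) and 3 muscle (red) member peaks on top. Dntt stands highest among the members at 11.97-fold, Vpreb3 lowest at 3.92-fold, and 3 member peaks with the same scores share a point near 7.12-fold.

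The member peaks were also narrower than the list they came from. Median widths were 355 against 432.5 bp in wt replicate 1, 389 against 420 bp in wt replicate 2, 496.5 against 549 bp in wt replicate 3, 545 against 616 bp in E12KO and 543 against 550 bp in E47KO. The direction was the same in all 5 lists, but the lists share regions, so they are not independent looks at it.

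Other genes of both lineages, listed from general knowledge, gave the wider picture. Of 34 further lymphoid genes, 20 had a peak in some list (58.8%, against 52.1% of all genes) and 7 had a wt consensus region within 10 kb (20.6%, against 16.7%). Among the strongest of these in wt replicate 1 were peaks at the receptor gene Notch1 (10.8-fold), the cytokine signalling inhibitor Socs3 (11.7-fold) and the kinase gene Syk (8.73-fold). Of 34 further muscle genes, 15 had a peak in some list (44.1%) and 3 had a wt consensus region within 10 kb (8.82%). These were Mef2d (5.29-fold), the slow myosin gene Myh7 (4.44-fold) and Mybph, which has no peak near its start in wt replicate 1. Promoter peaks in any list were found at 9 of the 34 further lymphoid genes (26.5%) and at 6 of the 34 muscle genes (17.6%), both below the 34.4% of all genes, as for the 37 members.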

How the data were processed

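E2A ChIP-seq peak lists of 5 libraries were used. The submitters' processing notes name mm9, MACS2 2.1.0, BWA 0.7.13 and Picard 1.119, without their settings. Lists were deposited per library with each peak's feature, nearest gene and distance to its start, per the file headers. The list of wt replicate 1 alone also holds a deposited pileup signal, −log10 p and −log10 q, and a fold enrichment (a ratio to the caller's background). These values are the authors' and were used only within that list. Distances in wt replicate 1 run to another peak edge than in the other lists, so the nearest over lists is given.

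Groups came from the labels. Peaks were joined where they overlapped by at least 1 bp with Python 3.11.15 and pandas 2.3.3, and this step was checked on simulated lists. Genes were matched by identifier to RefSeq (GRCm38.p6, names and sequences only), where 12078 of 12140 identifiers were found. Shares in 2 knockout lists carry 95% Wilson intervals. No test was made. The read depth is unknown. Every bound member is described, and the promoter windows printed are of members with a region within 2 kb in at least 2 lists, cut to the 250 bases before the start, plus 3 chosen after their sequences were seen. Of the further genes, up to 4 per list are named, by −log10 q in wt replicate 1 among those with a consensus region within 10 kb. One gene that this rule names is not reported here. The members and gene lists were chosen with earlier results of these data known. The alternatives tried were each wt list left out, other consensus rules, overlap, distance and score limits.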

Additional observations from a re-analysis of the deposited data

How the results depend on the processing

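Counts are over the 37 genes or their wt consensus regions. With a region required in all 3 wt lists, 6 members had one at any distance, 4 within 10 kb, and 7 regions had a peak in E12KO and 6 in E47KO. Of the 39 member regions in any wt list, 31 had a peak in E47KO (79.5%, against 90.9% of the consensus regions) and 32 in E12KO (82.1%, against 100%). Leaving out 1 wt replicate at a time gave 6 to 11 members at any distance, 4 to 7 within 10 kb, 7 to 18 regions in E12KO and 6 to 16 in E47KO. Only wt replicates 2 and 3 moved these counts by over 1.5 times, and a region must then be in both remaining lists. Within 2 kb, 3 members had a consensus region. An overlap of 50% of the shorter peak, or wt replicate 1 peaks with a −log10 q of at least 5, changed none of the 4 counts. Assignment by gene body used the mm9 coordinates of the 18 members that the tables name, and gave 8 in place of 7.

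No paired analysis was possible because each knockout has 1 library and the labels give replicate numbers to wild-type libraries only. Depth could not be assessed from peak lists.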
